A study of Rattus norvegicus with 20 samples.

Results

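The neuronal intermediate filament genes were followed in cortical neurons of young rats after stroke, in cells labelled as sprouting and as non-sprouting. The set holds 5 genes of 33093 tested: Nefl, Nefm and Nefh, which encode the light, medium and heavy neurofilament subunits, Ina, which encodes alpha-internexin, and Prph, which encodes peripherin. Members were taken by gene name alone, and the set itself was chosen with earlier results of these data known. Each was read by 1 probe printed in 1 spot, and each probe's accession was matched to the current gene symbol. The array files use older names for 4 of them, Nfl, Nef3, Inexa and Prph1. A probe for Prph2, a different gene, and a probe described as similar to the heavy neurofilament protein, now named Champ1, were not counted as members.

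Intermediate filament proteins of neurons assemble into long filaments that fill the axon and set its calibre. The light subunit is needed for assembly, the medium and heavy subunits carry long side arms that kinases phosphorylate in the axon, and alpha-internexin co-assembles with them in central neurons. Peripherin is found mostly in peripheral neurons and in central neurons whose axons leave the brain or spinal cord, and its expression in such neurons is known to go up after axon injury.

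The rats were 2 months old. In every animal CTb-Alexa 488, a fluorescent conjugate of the tracer cholera toxin B, was injected at the place of axonal sprouting in peri-infarct cortex, and CTb-Alexa 647 was injected into the same site 21 or 7 days later, in separate cohorts. The 2 cell types were cut out by laser capture 7 days after that, about 300 neurons of each, and their RNA went through 2 rounds of T7 amplification. The groups are therefore sprouting and non-sprouting neurons of the same animal at day 21 (5 animals) and at day 7 (5 animals), all after stroke and both tracers, and each animal was measured on 2 two-colour arrays with the dyes swapped. Groups hold pooled cells, so fewer cells of a type and less RNA per cell cannot be told apart. The labels do not say which combination of tracers defines a sprouting or a non-sprouting neuron, so cell types were taken from the channel labels. The labels name 1 animal per replicate, so errors are the spread between animals.

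Pan-neuronal markers were well above background on all arrays in both channels for 6 of 7 measured genes. The same held for 2 of 4 projection neuron, 6 of 11 oligodendrocyte, 5 of 8 astrocyte and 5 of 8 microglia markers. Detection alone therefore does not show how pure the captured neurons were. The 5 filament genes were also well above background in all 40 channels of the 20 arrays, and none was saturated or marked as an outlier spot. The median background-uncorrected signal over the 40 channels was 533 intensity units for Nefl (310 to 2015), 4352 for Nefm (1692 to 20612), 629 for Nefh (351 to 1759), 20242 for Ina (8707 to 54721) and 347 for Prph (111 to 740). Signals of different probes do not rank the genes, because each probe has its own brightness. One animal stood apart from the others: in day 21 replicate 4 the ratios of the 2 dye-swapped arrays, both turned to sprouting over non-sprouting, correlated at r = -0.36 over all genes, against 0.33 to 0.73 in the other 9 animals, and the SD of its ratios over genes was 0.065 against 0.155 to 0.239. The labels' dye assignment was kept for this animal, although that correlation leaves it in doubt, and its values enter every count and correlation unless stated. Without it the mean log2 ratio at day 21 was -0.05 for Nefl, -0.35 for Nefm, -0.10 for Nefh, 0.13 for Ina and -0.04 for Prph, and no filament gene passed the test (limma adjusted p from 0.842 to 0.988, n = 4).

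Promoter sequence was at hand for 2 of the 5 genes, Ina and Prph, and is shown for these as a description. Its relation to the ratios was not tested. Each sequence is the 100 bases just before the RefSeq gene start in assembly GRCr8, 5′ to 3′ on the plus strand, at chr1:255838029-255838128 for Ina and chr7:132097189-132097288 for Prph. Capitals mark every match to the motif TATAAA, known as the core of the TATA box, and to the motif GGGCGG, known as the GC box, searched on both strands.
Ina: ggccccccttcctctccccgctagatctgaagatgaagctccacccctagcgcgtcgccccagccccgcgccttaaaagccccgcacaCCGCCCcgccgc
Prph: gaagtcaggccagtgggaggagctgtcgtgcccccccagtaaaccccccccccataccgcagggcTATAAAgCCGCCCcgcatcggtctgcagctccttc
The Prph window held 1 TATAAA, beginning 35 bases before the start, and 1 GGGCGG, read here as CCGCCC, with no overlap between them. The Ina window held no TATAAA and 1 GGGCGG, also read as CCGCCC. Among 33469 promoter windows of the same length, 5.78% held TATAAA and 21.6% held GGGCGG on either strand. The matches describe the letters in these windows and do not show that a factor binds there.

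The first question was whether the filament genes differed between sprouting and non-sprouting neurons of the same animal. None of the 5 passed the test at day 21, at day 7 or over the mean of both days (limma, Benjamini-Hochberg adjusted p under 0.05 over all genes, n = 5 animals a day). Over all genes the test called 0% at day 21, 0.00302% at day 7, which is 1 gene, and 0% over both days. At an unadjusted p under 0.05 it passed 5.8% of genes at day 21, 9.48% at day 7 and 11% over both days, and of the filament genes 0 of 5, 1 of 5 and 0 of 5.

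**Figure D1:**
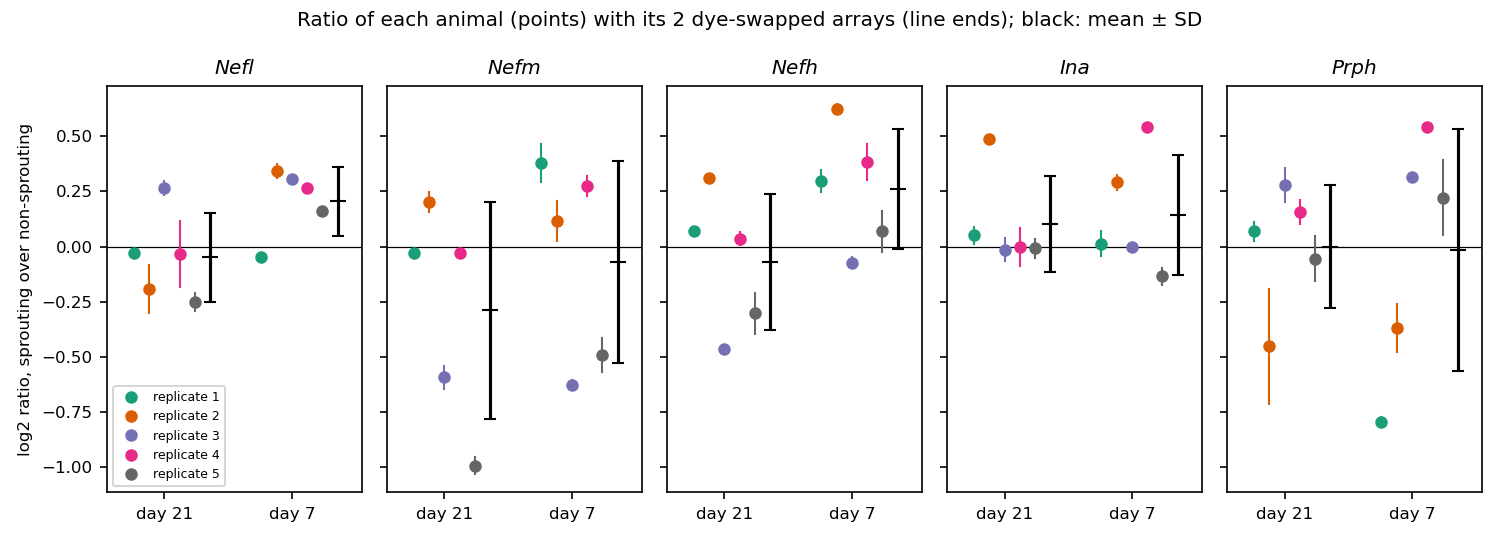
Log2 ratio of sprouting over non-sprouting neurons for the 5 genes, with 1 point per animal, a line to its 2 dye-swapped arrays, and the mean ± SD of the 5 animals in black. The same colour at day 21 and day 7 marks a shared replicate number, not a shared animal. Nefm and Prph spread most widely, and every gene has animals on both sides of 0.

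Nefl, the light subunit, had log2 ratios of -0.03, -0.19, 0.27, -0.03 and -0.25 in day 21 animals 1 to 5, against -0.05, 0.34, 0.30, 0.27 and 0.16 in day 7 animals 1 to 5. It was lower in sprouting neurons in 4 of 5 animals at day 21 (3 of 4 without replicate 4) and higher in 4 of 5 at day 7, and the 2 sets of animals overlapped. The mean was -0.05 ± 0.20 (SD, n = 5) at day 21, a ratio of 0.967 with a 95% confidence interval of 0.862 to 1.08. At day 7 it was 0.21 ± 0.16 (SD, n = 5), a ratio of 1.15 with an interval of 1.03 to 1.29. When arrays were centred on their median in place of the loess correction the day 7 mean was 0.10. The day 7 animals 1 to 5 were then at 0.13, 0.11, 0.13, 0.06 and 0.08. The day 7 value had the smallest p of the set in that comparison, with an unadjusted limma p of 0.0193, but its adjusted p over all genes was 0.477. Genes with a smaller p at day 7 numbered 1327. Without day 21 replicate 5 the day 21 mean was 0.0025, so its sign rests on that animal.

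The 2 marker lists with the largest median ratios at day 7, deep cortical layers and oligodendrocytes, are given as measured. Of the 7 deep cortical layer markers 6 were measured, and all 6 were higher in sprouting neurons at day 7 with a median log2 ratio of 0.28. At an unadjusted p under 0.05 this held for 5 of the 6, beside the 9.48% of all genes given above, a share that counts both directions. At day 21, 4 were higher and 2 lower (median 0.05), and the change of day 21 minus day 7 was above 0 for 1 and below 0 for 5 (median -0.22). Their median per animal ran from -0.08 to 0.06 at day 21, and was 0.21, 0.07, 0.50, 0.18 and 0.16 in day 7 animals 1 to 5. The largest day 7 ratio among them, 0.67 for Bcl11b, came from its brightest probe. Its second probe gave -0.02 at day 7 and -0.04 at day 21. Of the 11 oligodendrocyte markers, 2 were higher and 9 lower in sprouting neurons at day 21 (median -0.03), and 10 were higher and 1 lower at day 7 (median 0.29). Their change between days was above 0 for 1 and below 0 for 10 (median -0.35). The median of the oligodendrocyte markers per animal ran from -0.30 to 0.46 at day 21. It was -0.21, 0.20, -0.05, 0.75 and 0.92 in day 7 animals 1 to 5. In both lists the order of the day 7 animals differed from that of Nefl. No gene of either list passed the adjusted test in these comparisons. The log2 of the summed level of the deep layer list was 14.74 to 15.25 in sprouting and 14.81 to 15.32 in non-sprouting neurons at day 21, and 14.74 to 15.44 in sprouting and 14.02 to 15.18 in non-sprouting neurons at day 7. That of the oligodendrocyte list was 13.72 to 15.66 in sprouting and 13.92 to 15.47 in non-sprouting neurons at day 21, and 15.13 to 16.25 in sprouting and 15.26 to 16.15 in non-sprouting neurons at day 7. Every gene of both lists was well above background on at least 18 of 20 arrays in each cell type, so none of their defining markers was at 0. The part of these 2 lists in the filament gene ratios was not tested. Medians of the other marker lists at day 7 were smaller in size. They were 0.06 for pan-neuronal genes (5 higher, 2 lower) and 0.06 for GABAergic interneurons (6 higher, 2 lower). For projection neurons the median was -0.0051 (2 higher, 2 lower) and for astrocytes -0.02 (3 higher, 5 lower). For microglia it was 0.03 (5 higher, 3 lower) and for endothelial cells -0.0077 (3 higher, 3 lower).

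Nefm, the medium subunit, gave the widest ratios of the set. Its log2 ratios were -0.03, 0.20, -0.59, -0.03 and -0.99 in day 21 animals 1 to 5, against 0.38, 0.12, -0.63, 0.27 and -0.49 in day 7 animals 1 to 5. They ran from 1.99-fold lower in sprouting neurons, in day 21 replicate 5, to 1.3-fold higher, in day 7 replicate 1. In the animal with the lowest ratio the 2 dye-swapped arrays gave -0.96 and -1.03, so the value was nearly the same in either dye. The mean was -0.29 ± 0.49 (SD, n = 5) at day 21 and -0.07 ± 0.46 (SD, n = 5) at day 7, neither larger than the spread between animals (limma adjusted p = 0.872 and 0.927). The mean ratio was 0.818 at day 21, with a 95% confidence interval of 0.611 to 1.1, and 0.952 at day 7, with an interval of 0.711 to 1.28. At day 7 the sign turned when replicate 3 or replicate 5 was left out, to 0.07 and 0.04. At day 21 the mean was -0.11 without replicate 5.

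Nefh, the heavy subunit, had log2 ratios of 0.07, 0.31, -0.46, 0.04 and -0.30 in day 21 animals 1 to 5, against 0.30, 0.62, -0.07, 0.38 and 0.07 in day 7 animals 1 to 5. It was higher in sprouting neurons in 3 of 5 animals at day 21 (2 of 4 without replicate 4) and in 4 of 5 at day 7. The mean was -0.07 ± 0.31 (SD, n = 5) at day 21 and 0.26 ± 0.27 (SD, n = 5) at day 7, where the ratio was 1.2 with a 95% confidence interval of 0.999 to 1.43 (limma adjusted p = 0.527, unadjusted p = 0.0506). At day 21 the limma adjusted p was 0.958, and without replicate 3 the mean was 0.03. At day 7 the mean was 0.17 without replicate 2, and 0.15 with median centring in place of the loess correction.

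Ina, which encodes the filament protein that joins neurofilaments in the central nervous system, had log2 ratios of 0.05, 0.49, -0.01, -0.0008 and -0.01 in day 21 animals 1 to 5, against 0.01, 0.29, -0.0029, 0.54 and -0.14 in day 7 animals 1 to 5. With the loess correction most animals lay near 0. The day 21 mean of 0.10 ± 0.22 (SD, n = 5) then came from replicate 2, without which it was 0.0068. With median centring in its place, day 21 replicate 2 was at 0.05 and replicate 3 at 0.40. Day 7 replicates 3 and 5 were then at -0.42 and -0.36, so which animals lay near 0 depends on the normalization. The day 7 mean was 0.14 ± 0.27 (SD, n = 5). It was 0.04 without day 7 replicate 4, and -0.08 when arrays were centred on their median in place of the loess correction. Over both days the mean was 0.12, a ratio of 1.09 with a 95% confidence interval of 0.977 to 1.21 (limma adjusted p = 0.542), and -0.0077 with median centring. The Ina probe was brighter than 99.3% of probes.

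Prph, the peripherin gene, had log2 ratios of 0.07, -0.45, 0.28, 0.15 and -0.05 in day 21 animals 1 to 5, against -0.79, -0.37, 0.32, 0.54 and 0.22 in day 7 animals 1 to 5. Animals lay on both sides of 0 on both days, from 1.73-fold lower to 1.46-fold higher in sprouting neurons. The mean was -0.00055 at day 21 (SD 0.28, n = 5) and -0.02 at day 7 (SD 0.55, n = 5), and limma gave adjusted p = 1 and 0.983. Its sign at both days changed with the setting, and the 95% confidence interval of the mean ratio was 0.765 to 1.31 at day 21 and 0.756 to 1.29 at day 7. These data therefore leave differences of that size unresolved.

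A change of the ratio between days was tested directly. None of the 5 genes passed, as did 0% of all genes (limma, adjusted p under 0.05). At an unadjusted p under 0.05 it passed 4.05% of all genes and 1 of the 5, Nefl, whose change of day 21 minus day 7 was -0.25 on the log2 scale with a 95% confidence interval of -0.49 to -0.02 (limma adjusted p = 0.943). The change was -0.33 for Nefh (interval -0.70 to 0.04), -0.22 for Nefm (interval -0.81 to 0.38), -0.04 for Ina (interval -0.35 to 0.27) and 0.02 for Prph (interval -0.53 to 0.56). The Nefl change was -0.17 with median centring in place of the loess correction. The Nefm change was -0.04 without day 21 replicate 5 and -0.02 with scan day as a fixed term, and the Ina change was 0.06 without day 7 replicate 4. Arrays were scanned on 5 days, of which 3 held animals of both groups. In the first of these the only day 7 animal, replicate 3, had its other array scanned with the animals of the second, so the first value of each gene below mixes scan days. By scan day the Nefl change was -0.34, -0.13 and -0.52. The Nefh change was 0.13, -0.15 and -0.69, the Nefm change 0.60, 0.30 and -1.27, and the Ina change 0.03, 0.37 and -0.55, each of the 3 genes with both signs. The Prph change was -0.20, -0.31 and -0.60 by scan day, and -0.35 with scan day as a fixed term, against 0.02 over all animals.

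The second question was whether the level of each gene within one cell type differed between days. None of the 5 passed in either cell type, as did 0% of all genes in each (limma on normalized channel levels, adjusted p under 0.05, n = 5 against 5 animals). At an unadjusted p under 0.05 it passed 8.85% of genes in sprouting and 8.97% in non-sprouting neurons, and 0 of the 5 filament genes in both.

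**Figure D2:**
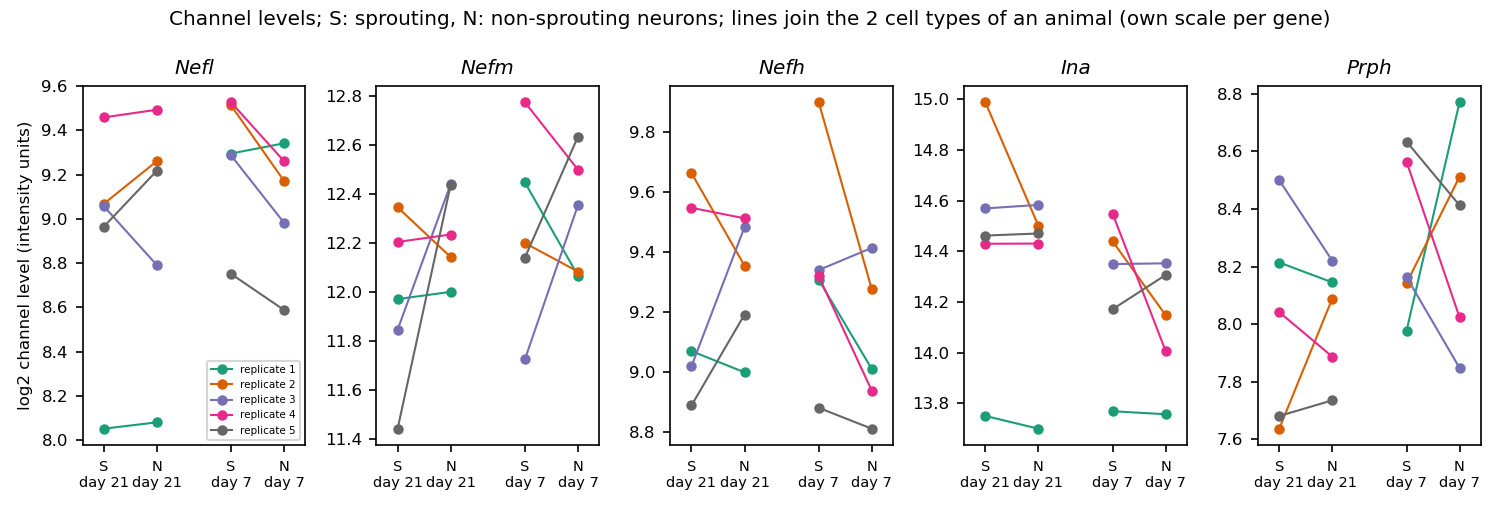
Log2 channel level in sprouting (S) and non-sprouting (N) neurons at day 21 and day 7, with a line joining both cell types of an animal and a separate scale for each gene. The days overlap for every gene, and day 21 replicate 1 lies lowest for Nefl in both cell types.

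Nefl levels in sprouting neurons, as log2 intensity, were 8.05, 9.07, 9.06, 9.46 and 8.96 in day 21 animals 1 to 5, against 9.30, 9.51, 9.29, 9.53 and 8.75 in day 7 animals 1 to 5. In non-sprouting neurons they were 8.08, 9.26, 8.79, 9.49 and 9.22 at day 21, against 9.34, 9.17, 8.98, 9.26 and 8.59 at day 7. Day 21 replicate 1 was the lowest animal in both cell types, and the days overlapped. The difference of day 21 minus day 7 was -0.35 in sprouting neurons (limma adjusted p = 0.609) and -0.10 in non-sprouting neurons (adjusted p = 0.888). Without day 21 replicate 1 it was -0.14 and 0.12.

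Nefm levels in sprouting neurons were 11.97, 12.35, 11.85, 12.21 and 11.44 in day 21 animals 1 to 5, against 12.45, 12.20, 11.73, 12.78 and 12.14 in day 7 animals 1 to 5. In non-sprouting neurons they were 12.00, 12.14, 12.44, 12.24 and 12.44 at day 21, against 12.07, 12.08, 12.35, 12.50 and 12.63 at day 7. The SD between animals was 0.35 in sprouting and 0.19 in non-sprouting neurons at day 21, and 0.39 in sprouting and 0.25 in non-sprouting neurons at day 7. The difference between days was -0.30 in sprouting and -0.08 in non-sprouting neurons (limma adjusted p = 0.619 and 0.843, n = 5 against 5). The sprouting difference was -0.17 without day 21 replicate 5 or without day 7 replicate 4.

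For the other 3 genes the differences between days were of similar size. Nefh differed by -0.11 in sprouting and 0.22 in non-sprouting neurons, Ina by 0.18 and 0.22, and Prph by -0.28 and -0.30 (limma adjusted p from 0.585 to 0.826). With levels from the loess correction alone Ina differed by -0.24 in sprouting and -0.20 in non-sprouting neurons, and Nefh by -0.042 in non-sprouting neurons, so these directions depend on the scaling. Without day 7 replicate 2 the sprouting difference of Nefh was 0.03. By the 3 scan days that held both groups, the first again with day 7 replicate 3 on 2 scan days, the sprouting level of Nefl differed by -0.53, 0.31 and -0.56 and that of Nefm by 0.36, -0.04 and -1.33, so neither kept its sign. That of Prph differed by -0.04, -0.57 and -0.88.

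The genes differed in how far animals lay apart. The SD of the ratio between animals within a day was 0.476 for Nefm, larger than that of 98.3% of all genes, 0.436 for Prph (97.6%), 0.292 for Nefh (90.2%), 0.246 for Ina (84.1%) and 0.18 for Nefl (69.4%), against a median of 0.12 over all genes. It was 6.07 times the SD between the 2 arrays of an animal for Nefm, 3.86 times for Ina, 3.83 times for Nefh, 2.69 times for Prph and 2.06 times for Nefl. Both dye-swapped arrays of an animal gave the same sign in 10 of 10 animals for Nefm, 9 of 10 for Nefl, Nefh and Prph, and 5 of 10 for Ina. Most of the spread of Nefm was thus between animals and not between an animal's arrays, which repeat the same amplified RNA and do not repeat the capture.

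The ratios of the 5 genes were then compared with each other across the 10 animals, as 10 pairs. All genes were read on the same arrays and share each array's normalization. Nefm and Nefh had r = 0.82 (permutation p = 0.00369, adjusted over the 10 pairs p = 0.0369) and rho = 0.84 (permutation p = 0.00385, adjusted p = 0.0234). The sign of the 2 ratios was the same in 7 of 10 animals. The share of all genes that correlated as strongly with either gene was not counted. With ratios centred within each day r was 0.84, and without the 2 animals farthest from the Nefm median it was 0.78 (exact permutation p = 0.0161, n = 8). The Nefm ratios left a gap between -0.49 and -0.03, with 4 animals below it, whose Nefh ratios were -0.46 to 0.07, and 6 above it, whose Nefh ratios were 0.04 to 0.62. Over the 6 animals above the gap r was 0.49, a split made on the Nefm ratio itself. The relation missed the threshold when any of 8 of the 10 animals was left out, where r stayed between 0.78 and 0.83 and adjusted exact p between 0.0501 and 0.103. One of the 8 was day 21 replicate 4, without which r was 0.83 (adjusted exact p = 0.0579) and rho 0.80 (adjusted exact p = 0.0691, n = 9). By rho the pair missed the threshold with any of 5 of the 10 animals left out. A scan day held at most 4 animals, too few for a correlation within scan days.

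**Figure D3:**
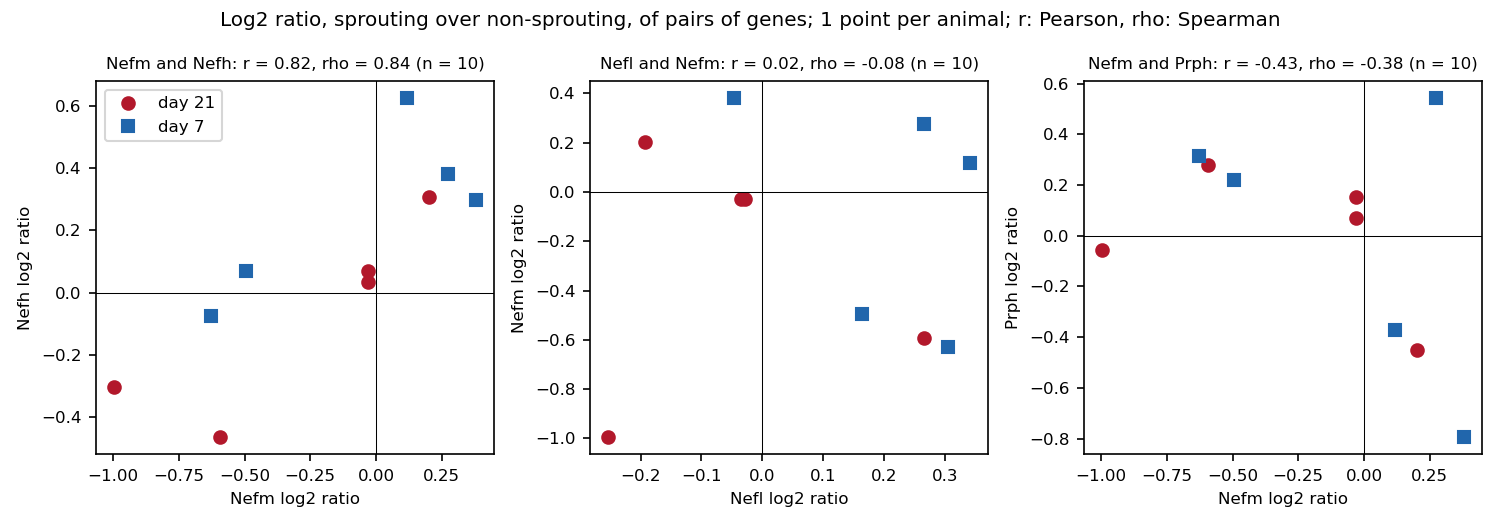
Log2 ratio of sprouting over non-sprouting neurons for Nefm and Nefh, Nefl and Nefm, and Nefm and Prph, with 1 point per animal (circles day 21, squares day 7, n = 10). Nefm and Nefh lie along a rising line with a gap in Nefm, while Nefl and Nefm have r = 0.02.

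With loess-corrected ratios Ina followed Nefh and Nefm in rank more than in size. Several Ina ratios near 0 lay closer together than the SD of 0.06 between the 2 arrays of an animal. With median centring r was 0.25 for Nefh and Ina (permutation adjusted p = 0.684). It was then 0.67 for Nefm and Ina (permutation adjusted p = 0.162). The values below are those with the loess correction. Nefh and Ina had rho = 0.83 (permutation adjusted p = 0.0234) and r = 0.63 (permutation adjusted p = 0.20), and Nefm and Ina had rho = 0.77 (permutation adjusted p = 0.0405) and r = 0.61 (permutation adjusted p = 0.20), each over 10 animals. Without the 2 animals farthest from the median r was 0.66 for Nefh and Ina (exact permutation p = 0.0803) and 0.62 for Nefm and Ina (exact permutation p = 0.0985). Without day 21 replicate 4 neither pair passed by rho, which was 0.83 for Nefh and Ina (adjusted exact p = 0.0691) and 0.68 for Nefm and Ina (adjusted exact p = 0.168, n = 9). With each of the 10 animals left out in turn the call by rho was lost in 7 cases for Nefh and Ina and in 9 for Nefm and Ina. For Nefl, r was 0.02 with Nefm and 0.17 with Nefh (permutation adjusted p = 0.947 and 0.914). Without day 7 replicate 2 and day 21 replicate 5, the animals farthest from the Nefl median, r was -0.63 with Nefm (exact permutation p = 0.104, n = 8) and -0.47 with Nefh (exact permutation p = 0.245, n = 8), so the values near 0 rest on those animals. In the RefSeq gene order of GRCr8, Nefl and Nefm lie on chromosome 15 with 1 pseudogene and 0 protein-coding genes between them. Prph had r = -0.43 with Nefm, -0.42 with Nefh and -0.07 with Ina, and 0.45 with Nefl, none past the threshold (permutation adjusted p from 0.38 to 0.947). Without the 2 animals farthest from the Nefl median r of Nefl and Prph was 0.76 (exact permutation p = 0.0158, n = 8, not adjusted).

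Among 13889 other genes with a current symbol and a value in all 10 animals, those with the ratio most like each filament gene were taken as the 3 with the highest Pearson r, as a description. For Nefm they were Gclm, a subunit of the enzyme that starts glutathione synthesis (r = 0.94), Slc20a1, a phosphate transporter (0.94), and Fmod, a matrix proteoglycan (0.93). For Nefh they were Pom121, a nuclear pore protein (0.94), Tpm2, a tropomyosin (0.94), and Mgp, matrix Gla protein (0.92). For Nefl they were Stx8, an endosomal SNARE protein (0.96), mrpl24, a mitochondrial ribosomal protein (0.90), and Cyp7b1, an oxysterol hydroxylase (0.90). For Ina they were Snx4, a sorting nexin (0.91), Klhl6 (0.90) and Nfkb1, a subunit of NF-kappaB (0.90), and for Prph they were Ier5l (0.95), Atp5mk, a small subunit of ATP synthase (0.93), and Ing5 (0.92). No filament gene was among the 3 nearest of another. The highest of 13889 values of r over 10 animals can be this large for unrelated genes too. The r of 0.82 between Nefm and Nefh lay below the values named here for either gene.

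Genes that carry, link, modify or degrade neurofilaments were examined as lists. None of their members passed the adjusted test in any comparison. Of 17 genes for transport, linkage and turnover 16 were measured, with 8 higher and 8 lower in sprouting neurons at day 21 and 12 higher and 4 lower at day 7. Their median log2 ratio was 0.01 at day 21 and 0.07 at day 7, against -0.0015 and -0.0054 over all genes. Over the mean of both days 6 were higher and 1 lower at an unadjusted p under 0.05, a rule that passed 5.6% of all genes as higher and 5.39% as lower. The list was chosen with earlier results of these data known, so this count is no test of the list. The 6 also depend on the probe. Arhgef28 was at 0.13 by its brightest probe and 0.04 by its other, and the probes of Dst are given below.

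The smallest p in that list belonged to Trim2, a ubiquitin ligase that binds the light subunit in mice. Its log2 ratios were 0.14, 0.58, 0.06, -0.02 and 0.32 in day 21 animals 1 to 5, against 0.22, 0.19, 0.21, 0.26 and 0.26 in day 7 animals 1 to 5. It was higher in sprouting neurons in 4 of 5 animals at day 21 (4 of 4 without replicate 4) and in 5 of 5 at day 7, with a mean over both days of 0.22 (limma adjusted p = 0.399, unadjusted p = 0.00127). Its second probe gave 0.12 at day 21 and 0.23 at day 7. Kif5c, a kinesin heavy chain that moves neurofilaments along axons, had a mean of 0.13 ± 0.10 at day 21, higher in 5 of 5 animals, and 0.40 ± 0.35 at day 7, higher in 4 of 5 (SD, n = 5; limma adjusted p over both days = 0.399). Myo5a, a myosin motor that binds neurofilaments, had 0.47 ± 0.66 at day 21 and 0.56 ± 0.53 at day 7, and the day 21 value was set largely by replicate 3 at 1.63. Dst, which links filaments to other parts of the cytoskeleton, had a mean over both days of 0.38 for its brightest probe but -0.01 and -0.02 for its other 2 probes, so its direction depends on the probe.

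**Figure D4:**
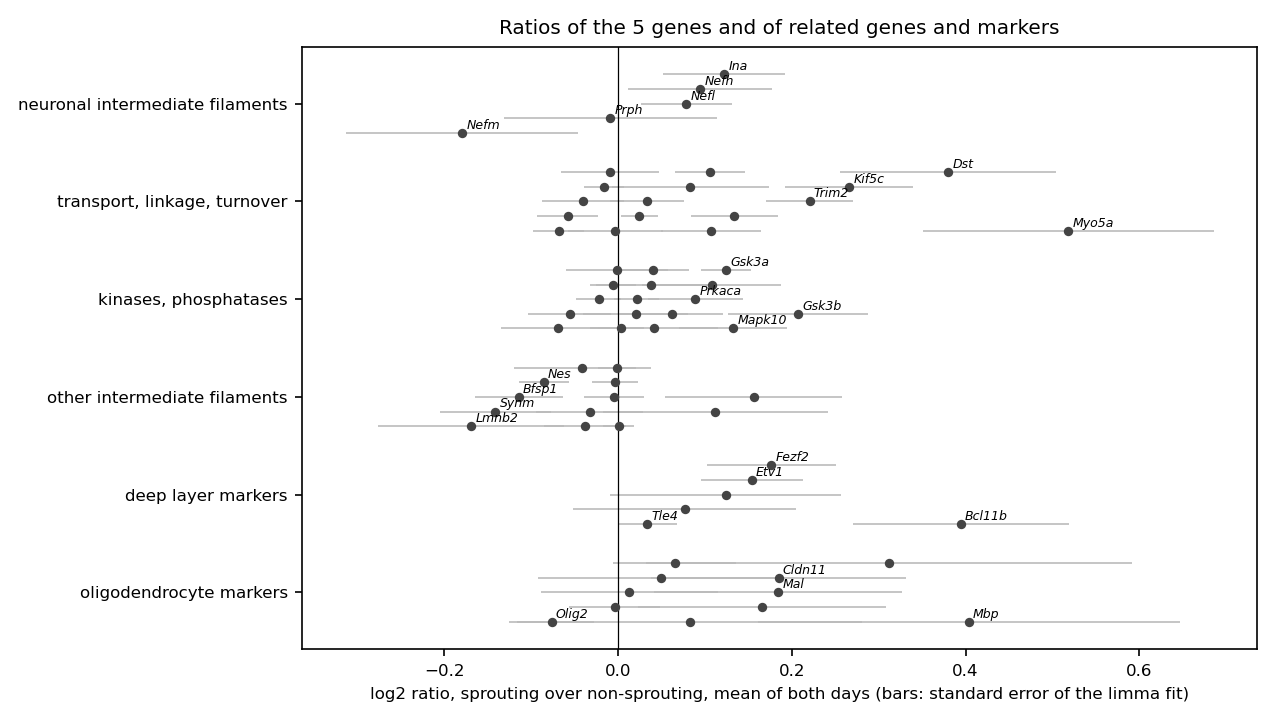
Log2 ratio of sprouting over non-sprouting neurons, mean of both days, for the 5 filament genes, for lists of related genes and for 2 marker lists; bars are the standard error of the limma fit (n = 10 animals) and vertical offsets within a list only separate the points. Up to 4 genes a list are named, those with the smallest p, and Nefm lies lowest of the 5 filament genes at -0.18.

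Of 18 genes for kinases, their activators and phosphatase subunits, which act on neurofilament proteins, 17 were measured. At day 21, 10 were higher in sprouting neurons and 7 lower (median log2 ratio 0.03). At day 7, 12 were higher and 5 lower (median 0.05). Gsk3a, a glycogen synthase kinase 3 gene, was higher in sprouting neurons in all 10 animals, at 0.02 in day 21 replicate 4 and in 9 of 9 without it, with means of 0.10 ± 0.07 at day 21 and 0.15 ± 0.10 at day 7 (SD, n = 5 each; limma adjusted p over both days = 0.399, unadjusted p = 0.00154). Its paralog Gsk3b had 0.16 ± 0.38 at day 21 and 0.26 ± 0.11 at day 7 (SD, n = 5 each), higher in 4 of 5 and 5 of 5 animals.

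The 13 other intermediate filament genes, which encode filaments of glia, precursors, lens, muscle and the nuclear lamina, were a further list. The day 21 ratios of 6 lay above 0 and those of 7 below it (median log2 ratio -0.0005). The day 7 ratios of 4 lay above 0 and those of 9 below it (median -0.05). The medians over all genes were -0.0015 at day 21 and -0.0054 at day 7, also below 0. Bfsp1, which encodes the lens filament protein filensin, had 0.11 ± 0.14 at day 21 and -0.34 ± 0.20 at day 7 (SD, n = 5 each), lower in sprouting neurons in 5 of 5 animals at day 7. Its change between days was 0.45, the smallest p of the list in that comparison, with a limma adjusted p of 0.943 and an unadjusted p of 0.00114. Nes, which encodes nestin of neural precursors, had -0.07 ± 0.10 at day 21 and -0.10 ± 0.07 at day 7 (SD, n = 5 each), but its second probe gave -0.11 at day 21 and 0.03 at day 7.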

How the data were processed

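The data were 20 two-colour Agilent rat arrays from 10 animals, 5 a day, each with sprouting and non-sprouting neurons and a dye swap. Per the file headers, Agilent Feature Extraction 9.1.3.1 made the scanner files, which hold the intensity of each spot and its background. The authors also deposited log2 ratios, Cy5 over Cy3, by a method not given in the sources used here. These were used as an alternative after turning, and each of the 20 columns correlated best with its own array. Another 20 columns, the mean log intensity of each array, stayed out.

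Mean signals were corrected with normexp (offset 50) and loess (limma 3.58.1, R 4.3.3), every ratio was put as sprouting over non-sprouting, and an animal's value was the mean of its dye-swapped arrays. Probes had to be well above background on 0.5 of the arrays of a cell type and day and measured in 3 animals a day, and the brightest probe stood for a gene (33093 of 41012 probes' genes tested). Ratios were fitted with lmFit and eBayes in 1 fit with a mean per day (8 residual degrees of freedom). Levels were normalized by Aquantile and fitted per cell type. Pairs of genes used 100000 permutations over 10 animals, or all permutations below 10 (Python 3.11.15). The fit of the day 7 ratio was tested on simulated ratios, and the other steps were not. Depth on arrays is signal over background, and the number of animals limits the precision.

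Members and lists were chosen with earlier results of these data known. One gene of the list of kinases and phosphatases is not reported here. Named genes are the 5 members, up to 4 genes per list and comparison with the smallest p, and the 3 most alike genes per member. Replicate numbers did not pair animals: the cohorts were separate, and same-numbered animals of both days correlated at r from -0.20 to 0.00. Alternatives changed the background correction, normalization, filter, probe rule, fit, scan day and replicate block, or left out each animal.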

Additional observations from a re-analysis of the deposited data

Results flagged for a closer look

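Of 30 sets of 5 values checked, the ratio and both channel levels of each gene on each day, 2 held an animal far from the other 4 by Dixon's test at the 95% level, where chance alone marks about 1 in 20 sets. The Ina ratio of day 21 replicate 2 was 0.49 on the log2 scale, higher in sprouting neurons, against -0.01 to 0.05 in the other 4 animals. With median centring in place of the loess correction that ratio was 0.05, and replicate 3 was the highest day 21 animal at 0.40. The mark on this ratio thus rests on the loess correction. The Ina level in non-sprouting neurons of day 21 replicate 1 was 13.70 as log2 intensity, against 14.43 to 14.58 in the other 4 animals. Its level in sprouting neurons of that animal was low too, at 13.75 against 14.43 to 14.99, but was not marked.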

How the results depend on the processing

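None of the 5 genes was called in any comparison under any setting run. The cause of the shifts below was not tested. With all 20 arrays fitted and the animal as a random block, 403 genes were called at day 7, 513 over both days and 4 for the change between days, none of them a filament gene, against 1, 0 and 0. The day 7 count was 0 with a fit per day, the mean of a gene's probes, median centring, processed signals or a stricter filter, and 0 to 1 with 1 animal left out. The count of pairs past the threshold by Pearson r was 0 with median centring (Nefm with Nefh then r = 0.80, adjusted p = 0.0646), and 0 to 1 with 1 animal left out. With the replicate block 0 genes were called for the change of the ratio and for either cell type, and the Nefl change was -0.25 (adjusted p = 0.995).

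Signs turned in these cases. With median centring Ina was -0.083 at day 7 and -0.0077 over both days, its change between days 0.15, and its r with Prph 0.037. With processed signals the change was 0.017 for Ina and -0.026 for Prph. With levels from loess alone the day 21 minus day 7 difference of Ina was -0.24 in sprouting and -0.20 in non-sprouting neurons, and that of Nefh -0.042 in non-sprouting neurons. With scan day as a fixed term the sprouting difference of Nefh was 0.039, the non-sprouting difference of Nefl 0.076 and the Prph change -0.35. Prph at day 21 was 0.051 with array weights, 0.0022 from the deposited ratios, 0.020 with median centring, 0.0012 with processed signals, 0.026 with scaling between arrays and 0.019 with scan day as a random block. At day 7 it was 0.049 with array weights and 0.027 with processed signals, and over both days it was 0.050 with array weights, 0.014 with processed signals, 0.0024 with scaling and 0.001 with scan day as a random block.

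With 1 animal left out, ratios ran from -0.13 to 0.0025 for Nefl at day 21, -0.18 to 0.069 for Nefm at day 7, -0.17 to 0.028 for Nefh at day 21, -0.071 to 0.11 for Prph at day 21, -0.16 to 0.18 for Prph at day 7 and -0.079 to 0.088 for Prph over both days. The change between days ran from -0.13 to 0.062 for Ina and -0.18 to 0.16 for Prph. The difference between days ran from -0.23 to 0.026 for Nefh in sprouting neurons, and in non-sprouting neurons from -0.23 to 0.12 for Nefl and -0.14 to 0.0001 for Nefm. Values of r ran from 0.78 to 0.86 for Nefm with Nefh, from -0.54 to 0.17 for Ina with Prph, from -0.18 to 0.40 for Nefl with Ina, from -0.10 to 0.46 for Nefl with Nefh and from -0.47 to 0.18 for Nefl with Nefm. All 5 probes were well above background on all arrays.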
